A study of Homo sapiens with 9 samples.

Results

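Glycolysis splits glucose into pyruvate in the cytosol, and the hypoxia response adjusts it to the oxygen at hand through the hypoxia-inducible factors (HIFs). When oxygen is scarce, prolyl hydroxylases of the EGLN family no longer mark the HIF alpha subunits for destruction, and the HIFs then raise genes of glucose uptake, glycolysis, pH control and collagen maturation. Cancer cells often use this programme when oxygen is present as well, and cancers of the bile ducts are among those studied for it.

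The gene set described here holds 33 genes of glycolysis and of the hypoxia response, chosen by name, and 32 of them had at least 1 probe set under their own symbol in the platform annotation, out of 19775 genes in all. CA9, the remaining gene, is not named for any probe set in that annotation and was not analysed here. The 32 genes were read by 76 probe sets, and 22 of them by more than 1. A further 2 probe sets that SLC2A3 shares with another gene, and 3 control probe sets of GAPDH, were kept out of these counts.

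Transcripts were measured on 9 one-colour arrays of HuCCT1 cells, a human cancer line of bile duct origin. In 5 samples the cells were transfected with the vector labelled YAPS127A, which overexpresses YAP1 with alanine in place of the serine that LATS kinases phosphorylate, a constitutively active form of this transcriptional co-activator. The other 4 samples were transfected with the empty vector. All 9 samples share the cell line, the growth medium and the RNA preparation. The labels do not say whether replicates are separate transfections or cultures, so every p-value here rests on a spread between samples that could be technical. Signals are given as log2 units per probe set, as deposited, and each gene is read from the probe set with its highest mean signal unless stated otherwise. A gene is called higher or lower when limma gives a Benjamini-Hochberg adjusted p under 0.05 over all 54613 probe sets tested.

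The median log2 signal of the arrays lay between 5.95 and 5.98. YAP1 itself averaged 12.71 ± 0.07 in YAPS127A cells and 12.56 ± 0.06 in empty vector cells (SD, n = 5 and 4) and was not called (adjusted p = 0.121 in limma); whether its probe sets read the construct is not known here. ANKRD1, a standard readout of YAP activity, was higher by 2.24 (adjusted p = 3.38e-07 in limma), with 13.12 ± 0.15 in YAPS127A cells and 10.88 ± 0.31 in empty vector cells. Of 9 epithelial and cholangiocyte markers with a probe set, 8 had a mean above the median signal of all probe sets (5.96), with KRT19 at 14.21 ± 0.10 in YAPS127A cells and 14.19 ± 0.10 in empty vector cells; 2 were called higher (KRT8 and CDH1) and 3 lower (CFTR, MUC1 and SOX9). Of 3 leukocyte markers 0 lay above that median, against 2 of 7 fibroblast markers (LUM, called higher by 1.45, and COL1A1, called lower at -0.70) and 2 of 6 hepatocyte markers. The hepatocyte marker SERPINA1 (-0.62, adjusted p = 1.12e-05) and the leukocyte marker CD14 (-0.45, adjusted p = 0.000259) were called lower in limma. Summed log2 signals of the epithelial markers ran from 105.7 to 106.7 in YAPS127A arrays and from 109.6 to 110.1 in empty vector arrays. CFTR (-2.72) and MUC1 (-1.06) gave the largest differences in this sum. The other epithelial markers lay between -0.25 (SOX9) and +0.30 (KRT8). The sums were 38.8 to 39.2 in YAPS127A arrays and 39.6 to 40.3 in empty vector arrays for hepatocyte markers, 40.5 to 41.7 in YAPS127A arrays and 39.5 to 40.8 in empty vector arrays for fibroblast markers, and 12.7 to 13.0 in YAPS127A arrays and 13.0 to 13.2 in empty vector arrays for leukocyte markers. The part of these markers in the results below was not tested. The gap between 3' and 5' probe sets of GAPDH, a sign of RNA quality, was 0.216 ± 0.036 in YAPS127A arrays and 0.222 ± 0.026 in empty vector arrays (exact permutation p = 0.746). The same gap of actin was 1.09 ± 0.28 in YAPS127A arrays and 1.25 ± 0.31 in empty vector arrays (exact permutation p = 0.381). It was widest in YAPS127A replicate 1 (1.58) and empty vector replicate 3 (1.69). Calls without these arrays are given at the end. A bulk signal cannot tell fewer cells expressing a gene from less RNA per cell.

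YAPS127A cells had higher transcripts of the glucose transporter gene SLC2A1, the hexokinase genes HK1 and HK2, PFKP, PFKFB3, PFKFB4 and PDK1. Further down the pathway PGAM1 and ENO2 were higher too, while GAPDH, PGK1, PKM and LDHA did not pass the test. Of the 9 upper glycolysis genes, from the hexokinases to TPI1, 3 were higher and 6 did not pass. Of the 7 lower glycolysis genes, 2 were higher and 5 did not pass. Of the 32 genes, 11 were higher, 7 were lower and 14 did not pass. The 18 called genes make up 56.2% of the set, where 28.7% of all genes and 40.7% of genes with a mean above the median signal were called. Those called higher were PFKP, PFKFB3, P4HA1, PDK1, ANKRD37, HK1, HK2, ENO2, PFKFB4, SLC2A1 and PGAM1. Those called lower were CA12, NDRG1, EGLN3, KDM3A, PFKFB2, HIF1A and EGLN1. The genes called higher make up 34.4% of the set, where 14.5% of all genes, and 21.0% of genes with a mean above the median signal, were called higher. The genes called lower make up 21.9%, close to the 19.7% of genes above the median signal that were called lower (14.2% of all genes). Genes above the median signal are given because 31 of the 32 genes, BNIP3 being the exception, lie above the median signal. The arrays of the 2 groups did not overlap in 18 of the 32 genes (56.2%), the same 18 that were called, against 28.3% of all genes. The median log2 difference was 0.03 over the set and 0.00477 over all genes. The median size of the difference was 0.28 over the set and 0.19 over genes above the median signal. At the brightest probe set 1 gene, PFKP, passed a 2-fold difference. Per probe set, 14 of 76 were higher and 16 lower, where 11.9% and 12.0% of all probe sets were called, and no gene had probe sets called in opposite directions.

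**Figure D1:**
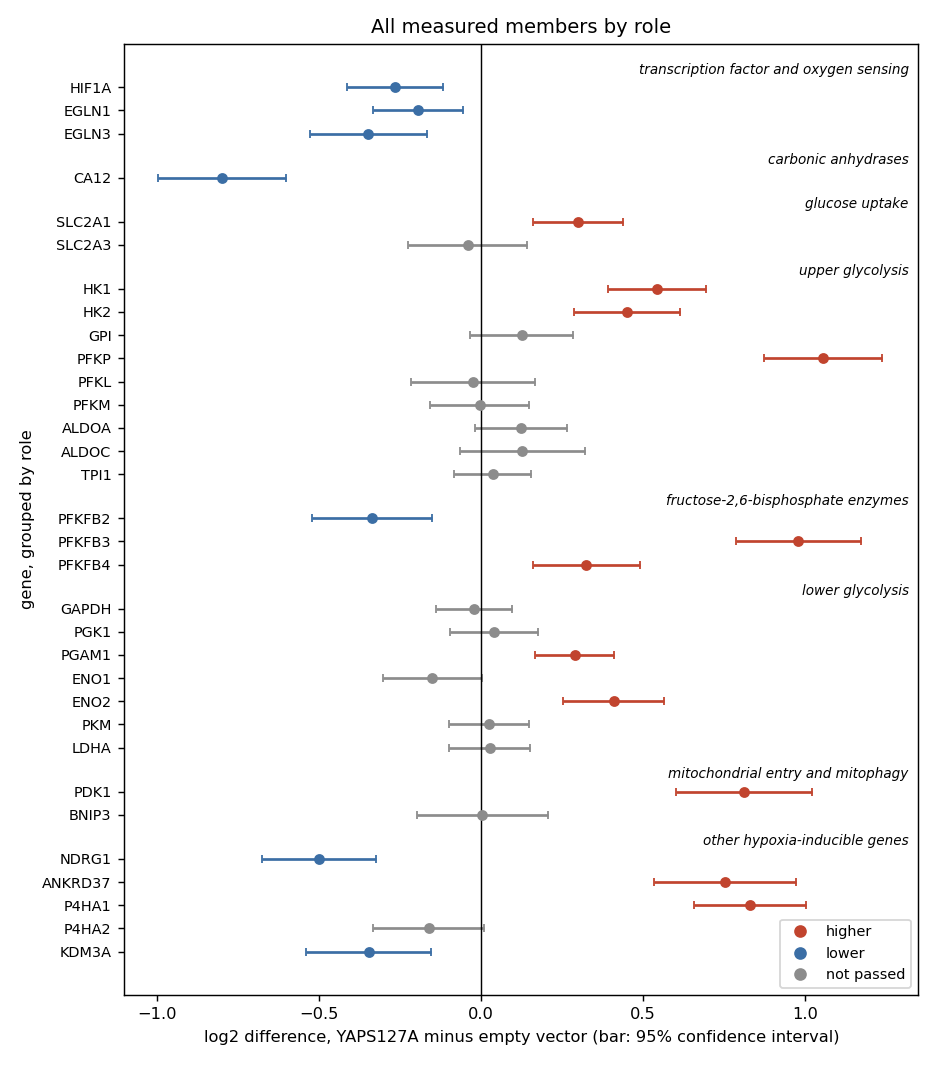
Log2 difference of the 32 measured genes (YAPS127A minus empty vector, brightest probe set), grouped by role, with 95% confidence intervals from limma; red marks genes called higher, blue lower and grey those that did not pass. PFKP stands farthest to the right at 1.06 and CA12 farthest to the left at -0.80, while GAPDH, PGK1, PKM and LDHA lie within 0.05 of 0.

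Glucose enters the cell through the GLUT transporters. SLC2A1, which encodes the widely expressed transporter GLUT1, had log2 signals of 11.15, 11.24, 11.23, 11.17 and 11.26 in YAPS127A cells, against 10.88, 10.79, 10.98 and 10.98 in empty vector cells. Every YAPS127A array lay above every empty vector array, and the difference was +0.30 (SE 0.06, adjusted p = 0.00452), or 1.23-fold. The second probe set of SLC2A1 was higher too, by 0.26 (adjusted p = 0.0112). SLC2A3, which encodes the high-affinity transporter GLUT3, ran from 6.96 to 7.21 in YAPS127A cells and from 6.89 to 7.23 in empty vector cells, so the groups overlapped (-0.04, 95% confidence interval -0.22 to 0.14), and 0 of its 3 probe sets passed.

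Hexokinases trap glucose inside the cell as glucose 6-phosphate. HK1, the broadly expressed form, had 10.96, 10.77, 10.72, 10.76 and 10.77 in YAPS127A cells, against 10.18, 10.25, 10.36 and 10.23 in empty vector cells. The groups were apart by more than the range within either, with a difference of +0.54 (SE 0.07, adjusted p = 0.000127), or 1.46-fold. HK2, the inducible form that many tumours raise, had 12.17, 12.20, 12.17, 12.16 and 12.32 in YAPS127A cells, against 11.84, 11.83, 11.78 and 11.55 in empty vector cells. Its 5 YAPS127A arrays again lay above all 4 empty vector arrays (+0.45, SE 0.07, adjusted p = 0.00083), and 2 of its 3 probe sets were called higher. GPI, which converts glucose 6-phosphate to fructose 6-phosphate, did not pass (+0.13, 95% confidence interval -0.03 to 0.29).

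Phosphofructokinase commits the sugar to glycolysis, and of its 3 genes PFKP was called higher, while PFKM and PFKL did not pass. PFKP, the platelet-type subunit, had 12.03, 11.87, 11.63, 11.88 and 11.78 in YAPS127A cells, against 10.74, 10.91, 10.73 and 10.74 in empty vector cells. This was the highest difference of the set, +1.06 (SE 0.08, adjusted p = 3.28e-06), or 2.08-fold. The muscle-type gene PFKM ran from 10.78 to 11.00 in YAPS127A cells and from 10.78 to 11.02 in empty vector cells, and its difference was -0.00375 (95% confidence interval -0.16 to 0.15). The liver-type gene PFKL ran from 7.54 to 7.93 in YAPS127A cells and from 7.63 to 7.88 in empty vector cells (-0.02, 95% confidence interval -0.22 to 0.17). PFKP minus PFKM, set to an empty vector mean of 0, lay between 0.98 and 1.17 in YAPS127A arrays, against -0.14 to 0.10 in empty vector arrays. PFKP minus PFKL lay between 0.97 and 1.18 in YAPS127A arrays and between -0.18 and 0.08 in empty vector arrays. Such gaps were computed for 10 pairs of genes, chosen after the values were seen, and they are given as descriptions. An exact permutation test was also run on each pair. Its p-values are left out because the pairs were picked from these same values. The groups overlapped for 2 of the 10, HK1 minus HK2 (-0.04 to 0.29 in YAPS127A arrays and -0.16 to 0.18 in empty vector arrays) and SLC2A1 minus SLC2A3 (0.22 to 0.42 in YAPS127A arrays and -0.24 to 0.29 in empty vector arrays). The other probe set of PFKP, with means of 4.37 in YAPS127A cells and 4.67 in empty vector cells, did not pass (-0.30, adjusted p = 0.0659), and the mean of both probe sets was higher by 0.38.

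The PFKFB enzymes make and break down fructose 2,6-bisphosphate, the strongest activator of phosphofructokinase. PFKFB3, whose product is known for high kinase activity and for induction by hypoxia, had 11.94, 12.19, 12.21, 11.87 and 11.93 in YAPS127A cells, against 11.17, 10.95, 11.03 and 11.04 in empty vector cells. No array of 1 group reached the range of the other, and the difference was +0.98 (SE 0.09, adjusted p = 8.38e-06), or 1.97-fold. PFKFB4, another hypoxia-inducible member of the family, had 8.21, 8.16, 8.11, 7.97 and 7.99 in YAPS127A cells, against 7.75, 7.87, 7.80 and 7.63 in empty vector cells (+0.33, SE 0.08, adjusted p = 0.00761). PFKFB2, known from the heart, went the other way. It had 10.41, 10.56, 10.66, 10.33 and 10.30 in YAPS127A cells, against 10.78, 10.68, 10.88 and 10.81 in empty vector cells (-0.33, SE 0.08, adjusted p = 0.0125), with 2 of its 4 probe sets called lower. PFKFB3 minus PFKFB2 lay between 1.27 and 1.37 in YAPS127A arrays and between -0.11 and 0.12 in empty vector arrays.

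**Figure D2:**
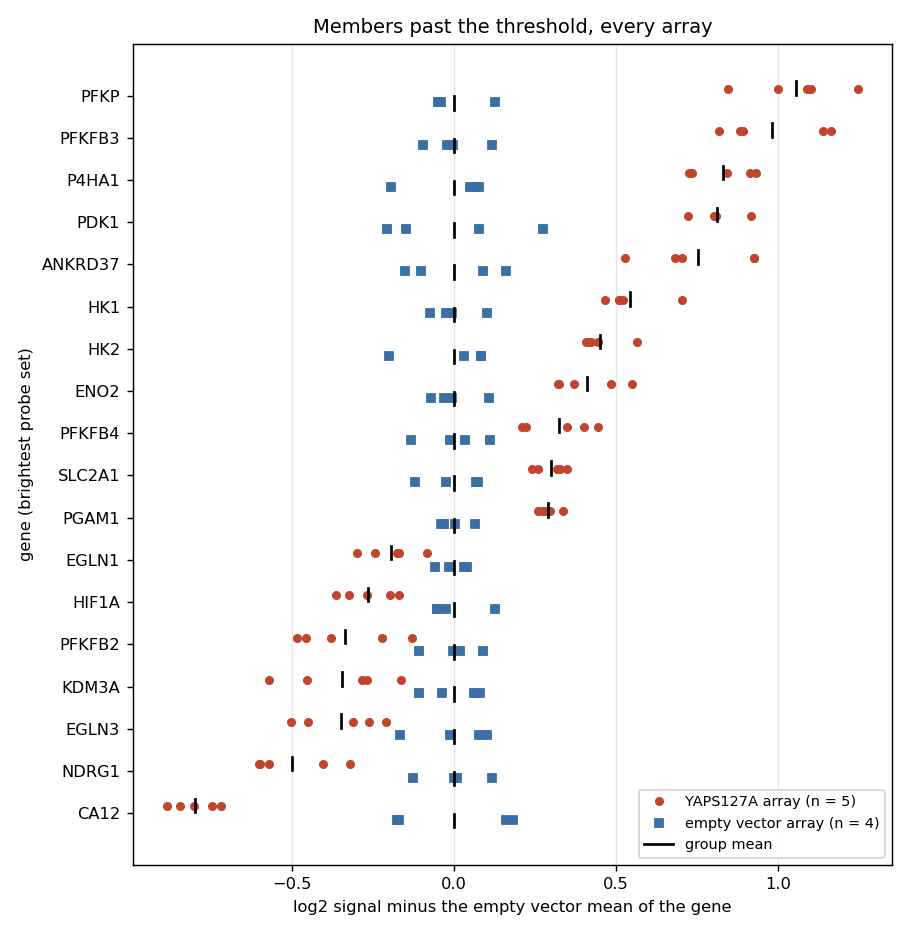
Log2 signal of the 18 called genes on each array, relative to the empty vector mean of the gene; red circles are the 5 YAPS127A arrays, blue squares the 4 empty vector arrays and black bars the group means. In each of the 18 rows the circles and squares do not overlap, and the gap between them is narrow for EGLN1, PFKFB2 and EGLN3.

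Below phosphofructokinase, the enzymes that carry the bulk of the carbon were measured at high signals in both groups. Aldolase A (ALDOA, +0.12, adjusted p = 0.216), aldolase C (ALDOC, +0.13, adjusted p = 0.354) and triose phosphate isomerase (TPI1, +0.04, adjusted p = 0.707) did not pass in limma. GAPDH, the dehydrogenase often used as a reference gene, had 14.38, 14.41, 14.41, 14.42 and 14.46 in YAPS127A cells, against 14.44, 14.44, 14.43 and 14.45 in empty vector cells. The 2 groups overlapped, with a difference of -0.02 (95% confidence interval -0.14 to 0.10). Phosphoglycerate kinase (PGK1, +0.04, 95% confidence interval -0.10 to 0.18), pyruvate kinase (PKM, +0.02, -0.10 to 0.15) and lactate dehydrogenase A (LDHA, +0.03, -0.10 to 0.15) gave intervals of like width. The highest signal on any array was 14.96, so GAPDH and LDHA were read near the top of the scale.

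The exceptions in the lower pathway were PGAM1 and ENO2. PGAM1, phosphoglycerate mutase, had 13.47, 13.39, 13.41, 13.40 and 13.43 in YAPS127A cells, against 13.09, 13.14, 13.20 and 13.10 in empty vector cells (+0.29, SE 0.06, adjusted p = 0.00236). ENO2, the enolase isoform best known from neurons, had 11.62, 11.56, 11.44, 11.40 and 11.39 in YAPS127A cells, against 11.06, 11.04, 11.18 and 11.00 in empty vector cells (+0.41, SE 0.07, adjusted p = 0.00117). Every YAPS127A array was the higher one in both genes. The common isoform ENO1 had 13.30 to 13.56 in YAPS127A cells and 13.53 to 13.62 in empty vector cells, and did not pass (-0.15, adjusted p = 0.158), although 1 of its 4 probe sets was called lower. ENO2 minus ENO1 lay between 0.35 and 0.84 in YAPS127A arrays and between -0.10 and 0.16 in empty vector arrays.

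PDK1 encodes a mitochondrial kinase that inhibits pyruvate dehydrogenase and so limits the conversion of pyruvate to acetyl-CoA, and the gene is a classical HIF target. It had 11.14, 11.13, 11.25, 11.13 and 11.05 in YAPS127A cells, against 10.18, 10.41, 10.60 and 10.13 in empty vector cells. The YAPS127A arrays lay close together (SD 0.07) and the empty vector arrays were more spread (SD 0.22), with no overlap. The difference was +0.81 (SE 0.10, adjusted p = 7.39e-05), or 1.75-fold, and a second of its 3 probe sets was higher by 0.46 (adjusted p = 0.00208). PDK1 minus LDHA lay between 0.70 and 0.84 in YAPS127A arrays and between -0.20 and 0.25 in empty vector arrays. BNIP3, a mitophagy receptor gene induced by hypoxia, had signals of 4.85 to 5.19 in YAPS127A cells and 4.78 to 5.17 in empty vector cells, below the median signal, and its difference was 0.00476 (95% confidence interval -0.20 to 0.21).

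All 3 genes of the set for the HIF alpha subunit and its oxygen sensors were called lower. HIF1A, the oxygen-regulated alpha subunit, had 13.04, 12.98, 13.14, 12.94 and 13.11 in YAPS127A cells, against 13.26, 13.25, 13.43 and 13.28 in empty vector cells. All YAPS127A arrays were lower, with a difference of -0.26 (SE 0.07, adjusted p = 0.0138), or 1.20-fold lower. HIF1A is known to be controlled mainly through the stability of its protein, which an array does not measure. EGLN3, a prolyl hydroxylase gene that HIF induces, had 6.77, 6.58, 6.63, 6.87 and 6.82 in YAPS127A cells, against 7.18, 7.16, 6.91 and 7.07 in empty vector cells (-0.35, SE 0.08, adjusted p = 0.00911). Its other probe set differed by +0.02, and the mean of both did not pass (-0.16, adjusted p = 0.208). EGLN1, the main oxygen sensor among the prolyl hydroxylases, had 12.15, 12.22, 12.31, 12.10 and 12.23 in YAPS127A cells, against 12.43, 12.34, 12.44 and 12.38 in empty vector cells (-0.19, SE 0.06, adjusted p = 0.0439). The EGLN1 call was held in 1 of the 9 fits with 1 array left out, the fit without YAPS127A replicate 3, with adjusted p up to 0.106 in the others.

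Other genes that hypoxia induces went both ways. P4HA1, which encodes the catalytic subunit of collagen prolyl hydroxylase, had 11.99, 11.98, 12.18, 12.09 and 12.16 in YAPS127A cells, against 11.32, 11.33, 11.30 and 11.06 in empty vector cells (+0.83, SE 0.08, adjusted p = 1.35e-05), or 1.78-fold. ANKRD37, a small ankyrin repeat gene and a known HIF target, had 10.91, 10.66, 10.51, 10.91 and 10.68 in YAPS127A cells, against 9.83, 10.07, 10.14 and 9.88 in empty vector cells (+0.75, SE 0.10, adjusted p = 0.000172). Both were clear of overlap, and for each the remaining, dimmer probe set did not pass. P4HA2, the other catalytic subunit gene, did not pass at its brightest probe set (-0.16, adjusted p = 0.173), was called lower at another (-0.44, adjusted p = 0.000169), and was lower when its 3 probe sets were averaged (-0.20, adjusted p = 0.00632). P4HA1 minus P4HA2 lay between 0.79 and 1.10 in YAPS127A arrays, against -0.17 to 0.12 in empty vector arrays.

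CA12 gave the deepest fall of the set. It encodes a membrane carbonic anhydrase that helps to control pH at the cell surface, and had 5.77, 5.71, 5.80, 5.63 and 5.67 in YAPS127A cells, against 6.35, 6.34, 6.70 and 6.68 in empty vector cells. The groups were well apart (-0.80, SE 0.09, adjusted p = 5.38e-05), or 1.74-fold lower, and 5 of its 7 probe sets were called lower, although the signal lies near the median of all probe sets. The lowest of the 5 was at -1.33 (2.51-fold, adjusted p = 3.3e-06 in limma), at a dimmer probe set, and the remaining 2 did not pass. NDRG1, a stress gene that hypoxia strongly raises in many cell types, had 8.51, 8.79, 8.71, 8.51 and 8.54 in YAPS127A cells, against 9.12, 9.23, 9.11 and 8.99 in empty vector cells (-0.50, SE 0.08, adjusted p = 0.000723). KDM3A, a histone demethylase gene induced by HIF, had 9.60, 9.72, 9.62, 9.43 and 9.31 in YAPS127A cells, against 9.78, 9.95, 9.96 and 9.85 in empty vector cells (-0.35, SE 0.09, adjusted p = 0.0129). In both genes each YAPS127A array was below each empty vector array.

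Several of these genes sit among neighbours that differed in the same direction. On chromosome 10 lie 6 of the 32 genes, and 5 of them (PFKP, PFKFB3, P4HA1, HK1 and PGAM1) were called higher; of 474 genes on that chromosome with a mean above the median signal, 55.7% were. Up to 50 neighbouring genes of each had a median difference between +0.28 (HK1) and +0.62 (PFKFB3), while the neighbours of BNIP3, at another place on chromosome 10, were at -0.01. Of the 26 genes on other chromosomes, 6 were higher (PDK1, ANKRD37, HK2, ENO2, PFKFB4 and SLC2A1). That share is near the 21.0% of all genes with a mean above the median signal that were called higher, although the 21.0% includes chromosome 10. The neighbours of these 6 genes lay between -0.00464 and 0.06. Among the genes called lower, the neighbours of PFKFB2 (-0.30) and EGLN1 (-0.29), both on chromosome 1, of NDRG1 (-0.21), on chromosome 8, and of HIF1A (-0.18), on chromosome 14, were lower too.

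When the median of the neighbours was removed on each array before the fit, 10 of the 11 genes called higher and 4 of the 7 called lower remained so. In that fit 11 of the 32 genes were higher and 5 lower, where 14.7% of all genes were called higher and 15.0% lower. The shares among genes above the median signal, where 31 of the 32 lie, were not computed for that fit. PFKP was then at 0.53, P4HA1 at 0.51, PFKFB3 at 0.36 and HK1 at 0.26, each still called, while PGAM1 was at -0.04 (adjusted p = 0.69). HIF1A (-0.09, adjusted p = 0.434), PFKFB2 (-0.03, adjusted p = 0.801) and EGLN1 (+0.10, adjusted p = 0.275) no longer passed. CA12 (-0.87), KDM3A (-0.36), EGLN3 (-0.36) and NDRG1 (-0.29, against -0.50 without the removal) kept their calls. ALDOA, whose neighbours on chromosome 16 were higher by 0.37, was called lower in that fit (-0.24, adjusted p = 0.0401), and ALDOC was called higher (+0.29, adjusted p = 0.0383). The subtraction assumes that a gene follows its neighbours, which was not tested gene by gene.

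**Figure D3:**
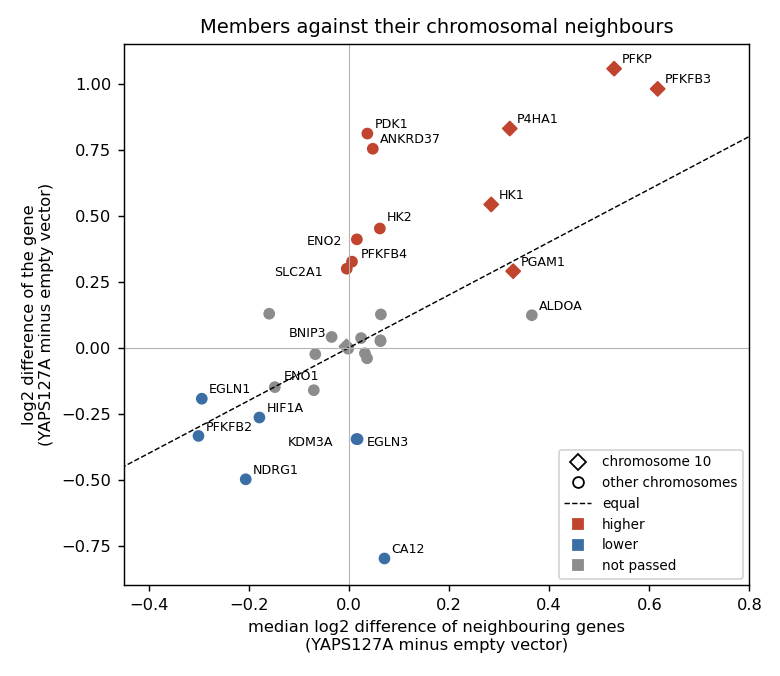
Log2 difference of each of the 32 genes (vertical axis, YAPS127A minus empty vector) against the median difference of up to 50 neighbouring genes (horizontal axis); diamonds are genes on chromosome 10, colours give the call, and the dashed line marks equal values. PFKP, PFKFB3, P4HA1 and HK1 lie above the line with raised neighbours, PGAM1, HIF1A, PFKFB2 and EGLN1 lie near it, and PDK1, ANKRD37 and CA12 lie far from it with neighbours near 0.

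Promoter sequences show how the letters of the HIF core motif are spread over genes that rose and genes that did not. RefSeq windows from 250 bases before to 50 bases after the gene start (GRCh38.p14) were at hand for 29 of the 32 genes (not for NDRG1, PFKFB2 and SLC2A3), and the core was searched as ACGTG or GCGTG on both strands, where a palindromic CACGTG counts as 2 overlapping matches. At least 1 match was present in 7 of 11 genes called higher, in 4 of 5 called lower and in 10 of 13 that did not pass, against 48.4% of 35116 windows in the table and 54.7% of 22198 windows of protein coding genes. The core of the TEAD factors, through which YAP acts on DNA, was searched as GGAATG on both strands and was present in 1 of 11, 0 of 5 and 2 of 13, against 14.0% of all windows. The windows printed are those of 3 of the 6 genes that were called higher with neighbours near 0. They are ANKRD37 (chr4:185396591-185396890, plus strand), HK2 (chr2:74833877-74834176, plus strand) and ENO2 (chr12:6914330-6914629, plus strand). Then follow 2 glycolysis genes that did not pass, PGK1 (chrX:78103998-78104297, plus strand) and LDHA (chr11:18394313-18394612, plus strand). Capitals mark each match to the HIF core on either strand.
ANKRD37: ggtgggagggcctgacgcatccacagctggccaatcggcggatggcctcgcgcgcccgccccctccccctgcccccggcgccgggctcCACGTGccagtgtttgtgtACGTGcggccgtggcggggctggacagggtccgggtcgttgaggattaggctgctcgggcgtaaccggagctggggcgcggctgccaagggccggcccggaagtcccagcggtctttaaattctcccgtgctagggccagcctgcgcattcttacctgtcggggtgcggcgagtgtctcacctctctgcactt
HK2: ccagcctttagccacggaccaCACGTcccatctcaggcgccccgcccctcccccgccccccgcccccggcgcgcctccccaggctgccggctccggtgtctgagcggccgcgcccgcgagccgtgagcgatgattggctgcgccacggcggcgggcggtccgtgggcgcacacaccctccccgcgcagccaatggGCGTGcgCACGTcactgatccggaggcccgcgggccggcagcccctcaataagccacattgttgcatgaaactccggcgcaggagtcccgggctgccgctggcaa
ENO2: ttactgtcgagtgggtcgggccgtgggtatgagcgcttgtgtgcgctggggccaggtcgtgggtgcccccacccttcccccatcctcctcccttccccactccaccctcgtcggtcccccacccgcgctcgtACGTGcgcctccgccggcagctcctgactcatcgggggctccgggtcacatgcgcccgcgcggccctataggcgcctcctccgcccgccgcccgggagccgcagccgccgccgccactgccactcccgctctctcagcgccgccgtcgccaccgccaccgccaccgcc
PGK1: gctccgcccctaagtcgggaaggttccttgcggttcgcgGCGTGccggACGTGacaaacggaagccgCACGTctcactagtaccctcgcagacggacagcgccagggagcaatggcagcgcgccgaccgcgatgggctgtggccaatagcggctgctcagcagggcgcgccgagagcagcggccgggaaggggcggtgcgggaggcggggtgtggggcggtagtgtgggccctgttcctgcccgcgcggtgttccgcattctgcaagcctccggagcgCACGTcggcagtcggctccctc
LDHA: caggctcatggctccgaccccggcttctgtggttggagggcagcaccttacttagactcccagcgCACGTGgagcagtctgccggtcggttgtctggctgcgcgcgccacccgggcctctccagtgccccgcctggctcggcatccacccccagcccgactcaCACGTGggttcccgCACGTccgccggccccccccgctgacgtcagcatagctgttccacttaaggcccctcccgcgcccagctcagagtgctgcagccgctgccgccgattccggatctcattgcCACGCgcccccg

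ANKRD37 and HK2, which rose by 0.75 and 0.45, hold 3 matches each and ENO2, which rose by 0.41, holds 1. PGK1 holds 4 and LDHA 6, with differences of +0.04 and +0.03 that did not pass. The window of PDK1, which rose by 0.81, holds 0, and those of SLC2A1 and PFKFB4 hold 1 each. These 3 windows are not printed. Only 1 window per gene was searched, so a match near another start of the gene, or farther away, would be missed. A match is a run of letters and not a bound site.

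Related genes outside the set were counted in 5 lists that hold 98 measured genes. Of the 98, 23 were called higher and 19 lower, near the 21.0% and 19.7% of genes above the median signal (14.5% and 14.2% of all genes). With the neighbours' median removed, 23 were higher and 13 lower, where 14.7% and 15.0% of all genes were. The shares among genes above the median signal were not computed with the neighbours removed. The genes named are the up to 4 of each list with the lowest p-values. Of 16 HIF subunits and regulators, 4 were higher, 4 lower and 8 did not pass, with a median of +0.13. Among genes above the median signal, where 15 of the 16 lie, 40.7% were called in either direction (28.7% of all genes). EPAS1, which encodes the alpha subunit of HIF-2, had 11.39, 11.33, 11.19, 11.28 and 11.35 in YAPS127A cells, against 10.34, 10.39, 10.37 and 10.34 in empty vector cells. It was higher by 0.95 (SE 0.06, adjusted p = 6.51e-07), or 1.93-fold, with neighbours at 0.06. The mean of the EPAS1 probe sets was higher by 0.48 (adjusted p = 0.000152 in limma). ARNT, the beta subunit that HIF-1 and HIF-2 share, had 10.07 to 10.37 in YAPS127A cells and 10.62 to 10.85 in empty vector cells (-0.52, adjusted p = 0.000414), and its neighbours were at -0.27. In limma ARNT was at -0.25 (adjusted p = 0.0401) with the neighbours' median removed and at -0.24 (adjusted p = 0.00547) as the mean of its probe sets. CITED2, which competes with HIF for a co-activator, was higher by 0.49, and RBX1, a subunit of the ubiquitin ligase that removes HIF alpha subunits, by 0.45.

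Of 25 further HIF target genes, 9 were higher (36.0%) and 6 lower (24.0%), against 21.0% and 19.7% of genes above the median signal, where 22 of the 25 lie. The other 10 did not pass, and the median was +0.06. The collagen cross-linking enzyme gene LOX had 10.97, 10.84, 10.95, 11.07 and 11.04 in YAPS127A cells, against 9.62, 9.60, 9.81 and 9.53 in empty vector cells (+1.34, SE 0.07, adjusted p = 2.06e-07). TMEM45A was higher by 0.80, ADM, the gene of the vasodilator peptide adrenomedullin, by 0.72, and the mitochondrial adenylate kinase gene AK4 by 0.68. The neighbours of AK4 were higher by 0.48, and after their removal AK4 was at 0.20 (adjusted p = 0.0453).

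Of 23 genes of the pentose phosphate route, glycogen and other branches, 6 were higher (26.1%, near the 21.0% of genes above the median signal, where 21 of the 23 lie) and 1 was lower, with a median of +0.10. The 4 with the lowest p-values were PGM1, phosphoglucomutase (+0.81, neighbours +0.45), PHGDH, the first enzyme of serine synthesis (+1.22, SE 0.13, adjusted p = 2.63e-05), PCK2, the mitochondrial PEP carboxykinase (+0.83), and PYGL, glycogen phosphorylase (+0.67). Of 17 genes of pyruvate entry and oxidation, 2 were higher (11.8%) and 6 lower (35.3%, against 19.7% of genes above the median signal), with a median of -0.00452. With the neighbours' median removed the counts were 2 higher and 3 lower, and 4 of the 6 lower genes no longer passed. PDK3, a kinase gene of the same family as PDK1, had 7.43 to 7.76 in YAPS127A cells and 8.28 to 8.45 in empty vector cells (-0.82, SE 0.08, adjusted p = 1.13e-05). The pyruvate carrier gene MPC1 (-0.40) and PDHX (-0.41), a structural part of pyruvate dehydrogenase, were lower with neighbours at -0.41 and -0.39, and neither passed with the neighbours removed, while OGDH was higher by 0.50. Of 17 other isoenzyme and lactate genes, 2 were higher and 2 lower (11.8% each), with a median of +0.05, where 14.5% of all genes were higher and 14.2% lower. These were HKDC1, a gene of the hexokinase family (+0.54, neighbours +0.28), MINPP1 (+0.51, neighbours +0.36), BPGM, which makes 2,3-bisphosphoglycerate (-0.79), and GALM (-0.27). With the neighbours' median removed, HKDC1 and BPGM kept their calls, while MINPP1 (0.15, adjusted p = 0.192) and GALM (-0.26, adjusted p = 0.0551) did not pass. Whether the lists differ from each other was not tested.

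**Figure D4:**
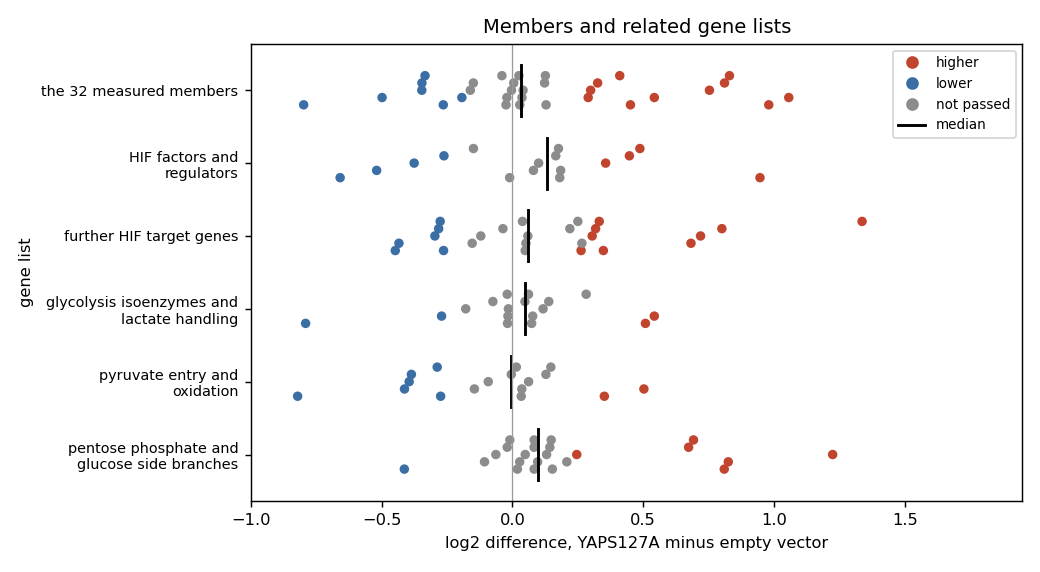
Log2 differences (YAPS127A minus empty vector) of the 32 genes and of the genes of 5 related lists; each point is a gene, colours give the call and black bars the medians, which lie between -0.00452 and 0.13. Each list holds genes called in both directions, with LOX at 1.34 and PHGDH at 1.22 farthest to the right.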

How the data were processed

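Biotin-labelled total RNA was hybridised to one-colour Affymetrix arrays, per the labels. The values the authors deposited were taken as log2 signals from their range (1.62 to 14.96). How they were background-corrected, summarised and normalized is not stated in the labels, and the array medians lay between 5.95 and 5.98. No further scaling was applied. The file held 54675 probe sets and 0 columns of other samples; 62 control probe sets were left out of the test. The platform annotation named 1 gene for 41091 of the rest, several for 1801 and none for 11721, and 41037 probe sets were matched to RefSeq by gene ID, which gave their current symbols.

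Groups were taken from the vector in the labels. The fit over all 9 arrays had the group as its only term and used lmFit and eBayes of limma 3.58.1 in R 4.3.3 (11.4 total degrees of freedom), and p-values were Benjamini-Hochberg adjusted over all 54613 probe sets. Errors of differences are SEs and errors of levels SDs. The 3' to 5' gaps of control probe sets were compared by 2-sided exact permutation over arrays (scipy 1.17.1). Neighbours were the nearest genes by RefSeq order with a mean above the median signal, up to 50. The fit was tested on simulated data. Members, lists and tests were chosen with earlier results of these data known. All 32 members are accounted for, and of each list up to 4 genes with the lowest p-values are named; KRT19 and SOX9 were named after their values were seen, to show a marker and complete a count.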

Additional observations from a re-analysis of the deposited data

Results flagged for a closer look

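Each gene was checked for 1 array far from the others of its group, in 64 groups of 4 or 5 arrays, where chance gives about 1 such array in 20 groups. There were 6. HK1 stood at 10.96 in YAPS127A replicate 1, against 10.72 to 10.77 in the other YAPS127A arrays. HK2 stood at 12.32 in YAPS127A replicate 5, against 12.16 to 12.20 in the others, and PGK1 at 13.11 in YAPS127A replicate 2, against 13.19 to 13.21. Among empty vector arrays, HIF1A stood at 13.43 in replicate 3 (others 13.25 to 13.28), PFKP at 10.91 in replicate 2 (others 10.73 to 10.74) and P4HA1 at 11.06 in replicate 4 (others 11.30 to 11.33). The 6 arrays are spread over both groups. The calls of HIF1A, HK1, HK2, PFKP and P4HA1 held in all 9 fits with 1 array left out.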

How the results depend on the processing

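The count of genes called higher was 11 under each of these settings: quantile normalization, median centring, dim probe sets left out, trend and robust eBayes, array weights, the replicate block, the actin gap as a covariate, the neighbours' median removed, each array left out, and the mean or the most variable probe set of a gene. The genes behind it changed in 1 case, with the neighbours' median removed, as given above. The count called lower was 5 to 9 under them, and 3 when both arrays with the largest actin 3' to 5' gap (YAPS127A replicate 1 and empty vector replicate 3), chosen after seeing the data, were left out. HIF1A (-0.22, adjusted p = 0.0625), EGLN1 (-0.17, 0.147), PFKFB2 (-0.29, 0.0705) and KDM3A (-0.34, 0.0505) then lost their calls in limma. The actin gap averaged 1.09 ± 0.28 in YAPS127A arrays and 1.25 ± 0.31 in empty vector arrays (exact permutation p = 0.381). With the replicate block, 11 genes were higher and 5 lower, and EGLN1 (adjusted p = 0.112) and PFKFB2 (adjusted p = 0.0507) lost their calls; same-numbered arrays did not deviate together (correlations -0.25, 0.04, 0.01 and 0.03), so the numbers were not taken as pairs. EGLN1 also lost its call with the actin gap as a covariate (adjusted p = 0.0586). With the most variable probe set, ENO1 (-0.29, adjusted p = 0.0461) and P4HA2 were called lower.

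Signs changed as follows, among called genes for EGLN1 and PGAM1 only. With the neighbours' median removed, EGLN1 was at 0.1009, PFKL at 0.0429, ALDOA at -0.2423, PGAM1 at -0.0383, PKM at -0.0384 and LDHA at -0.0348. With the mean of the probe sets, SLC2A3 was at 0.1085, PKM at -0.0206 and BNIP3 at -0.0544. With the most variable probe set, SLC2A3 was at 0.2227, TPI1 at -0.0067, PKM at -0.0658 and BNIP3 at -0.1136. With the actin gap as a covariate, PFKL was at 0.0259 and BNIP3 at -0.004, and BNIP3 was at -0.0018 after median centring. With 1 array left out, PFKL ranged from -0.075 to 0.0207, PFKM from -0.0502 to 0.0301 and BNIP3 from -0.0746 to 0.0542. A pseudocount was not needed on a log2 scale. The number of arrays limits the precision, and BNIP3 lies below the median signal.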
